A study of Drosophila melanogaster with 3 samples.

Results

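The genes described here encode the small nuclear RNAs (snRNAs) of Drosophila melanogaster. They were chosen by symbol, as every gene of the dm6 annotation whose name begins with snRNA:, a rule that uses no measured value, although the set was taken up with earlier results of these data known. This gave 32 genes of 18164 annotated genes on the chromosome arms, transposable elements left out. They were 5 copies of U1, 6 of U2, 3 of U4, 7 of U5 and 3 of U6, single genes for U11, U12, U4atac, U6atac and U7, a pair of 7SK genes and 1 gene named LU. So 28 of the 32 belong to spliceosomal classes, while U7, 7SK and LU came in by their names. By arm, 16 lay on 2L, 10 on 3R, 4 on 3L and 2 on X.

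Chromatin immunoprecipitation followed by sequencing (ChIP-seq) mapped the CG12155 protein, fused to eGFP at its C terminus, in whole embryos of a stable transgenic fly line. The single group held 3 biological replicates of embryos from 0 to 24 hours after egg laying, both sexes together, precipitated with an antibody against GFP. All replicates carry the same transgene, and the labels name no driver, no other allele and no condition. Whole embryos mix all tissues and stages, so a region found in few cells cannot be told apart from one weakly bound in many. A matched control is not analysed here, and what part of the enrichment at these genes is independent of the fusion protein was not tested.

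The major spliceosome works through U1, U2, U4, U5 and U6. U1 pairs with the 5′ splice site and U2 with the branch point, and U4, U5 and U6 join them as a preassembled particle. U6 takes part in the catalytic core. U11, U12, U4atac and U6atac replace U1, U2, U4 and U6 in the minor spliceosome. U7 guides the 3′ end processing of histone messages, and 7SK RNA holds the elongation kinase P-TEFb inactive. In flies these short genes share an upstream element, the PSEA, which is bound by a small complex of its own. RNA polymerase II reads most of them, while U6, U6atac and 7SK are read by RNA polymerase III and carry a TATA box as well.

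That promoter plan is visible in the reference sequence of all members but 7SKb. Below are stretches of copies with strong, weak and no enrichment, with 7SKb last. Each runs 5′ to 3′ from 80 bases before the annotated start to 10 bases after it, counting the start base as 0, on the gene's own strand of the RefSeq Release 6 sequence (equal to dm6). Capitals mark the letters TTCNCAA and, where present, the TATA letters TATATA or TATAAA.
snRNA:U1:95Ca: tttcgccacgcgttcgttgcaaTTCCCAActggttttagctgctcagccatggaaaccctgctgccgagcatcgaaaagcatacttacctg
snRNA:U1:21D: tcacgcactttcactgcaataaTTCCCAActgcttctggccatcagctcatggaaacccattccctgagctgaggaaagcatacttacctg
snRNA:U1:95Cb: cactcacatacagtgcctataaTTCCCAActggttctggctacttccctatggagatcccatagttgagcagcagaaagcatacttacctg
snRNA:U2:34ABa: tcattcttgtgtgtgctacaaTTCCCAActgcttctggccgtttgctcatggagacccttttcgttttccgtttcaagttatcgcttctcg
snRNA:U4:39B: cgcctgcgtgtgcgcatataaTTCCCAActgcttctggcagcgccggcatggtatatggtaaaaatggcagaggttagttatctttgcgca
snRNA:U5:63BC: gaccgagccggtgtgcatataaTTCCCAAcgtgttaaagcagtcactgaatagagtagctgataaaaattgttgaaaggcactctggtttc
snRNA:U6:96Aa: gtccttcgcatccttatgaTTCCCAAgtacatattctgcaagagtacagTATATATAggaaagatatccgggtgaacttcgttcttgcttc
snRNA:U6:96Ac: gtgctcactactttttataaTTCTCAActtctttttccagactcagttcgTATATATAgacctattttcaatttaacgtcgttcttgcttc
snRNA:7SKb: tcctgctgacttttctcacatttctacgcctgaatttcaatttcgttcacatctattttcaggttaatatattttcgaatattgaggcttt

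In the 100 bases before the start, TTCCCAA was shared by 26 of the 32 genes on the gene strand and TTCNCAA by 31, beginning 64 to 55 bases before the start with a median of -58. The exception was 7SKb, which had no TATA letters there either. These letters were found by counting 7-mers in the same promoters, so their share is a description. On either strand TTCNCAA lay in 6.24% of windows of that length at 19253 protein-coding starts, in 8.62% at tRNA genes and in 8.55% at snoRNA genes. The TATA letters occurred on the gene strand of 5 members, which were the 3 U6 genes, U6atac and 7SKa, beginning 31 to 28 bases before the start. On the gene strand, TATATA lay in 9.38% of member promoters and 8.36% of protein-coding promoters, and TATAAA in 6.25% and 13.5%. As a share of all members these letters were thus near or below the protein-coding background. The 7-mer TCCCAAC, which overlaps TTCCCAA, was in 17 of 26 promoters outside the U6, U6atac and 7SK classes and in 0 of those 6. TTCCCAA itself was in 23 of the 26 and in 3 of the 6, and U6:96Ab and U6:96Ac read TTCTCAAC.

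A minority of snRNA genes carried a strong CG12155-eGFP region. The optimal list holds 5202 regions of the pooled replicates that pass the authors' reproducibility filter, and a summit is the point of highest enrichment in a region. An optimal summit lay within 500 bp of the start of 6 of the 32 genes, or 18.8% (95% Clopper-Pearson interval 7.21 to 36.4%). Measured the same way from the annotated gene start, the background was 23.9% of 13945 protein-coding genes, 6.55% of 290 tRNA genes, 5.58% of 269 snoRNA genes and 7.3% of 3261 other noncoding genes. The protein-coding share lay within the snRNA interval, and so did the 7.3% of other noncoding genes, just above its lower end. The tRNA and snoRNA shares lay below the interval, which counts 2 U6 genes that share 1 summit separately. With members within 1000 bp or with a shared summit counted once, 5 of 26 had an optimal summit (19.2%). No interval was computed for that count, so a separation from tRNA and snoRNA genes is not shown by it. The snRNA share depended on the weaker part of the list. Among the strongest 50% of optimal peaks the snRNA share was 6.25%, which is 2 genes at 1 U6 summit, beside 13.7% of protein-coding, 4.48% of tRNA, 2.6% of snoRNA and 3.5% of other noncoding genes. Here and below, intervals cover counting error over genes only, and genes with a common summit or near-identical sequence are not independent.

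Each replicate was also read on its own, from its 5202 strongest regions by the authors' signal, a value of unstated scale that serves here for ranks alone. Replicates 1, 2 and 3 gave 4, 6 and 7 of the 32 genes, a mean of 17.7% ± 4.77 (SD, n = 3). Protein-coding genes gave 24.2, 22.8 and 23.1% in the same order, a mean of 23.4% ± 0.732 (SD, n = 3). The tRNA genes gave 7.59, 8.28 and 5.86% (7.24% ± 1.24), snoRNA genes 4.83, 5.95 and 3.35% (4.71% ± 1.31) and other noncoding genes 7.05, 6.69 and 7.08% (6.94% ± 0.222). The lowest snRNA value, 12.5% in replicate 1, was above the highest value of these noncoding classes, 8.28% for tRNA genes in replicate 2, and all 3 snRNA values were below every protein-coding value. The SD of the snRNA share is that of a count moving between 4 and 7. U1:95Ca, U4:39B, U6:96Ab and U6:96Ac were among the strongest regions of all 3 replicates, U5:63BC of 2, and U5:35D, U1:21D and 7SKa of 1 each.

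**Figure D1:**
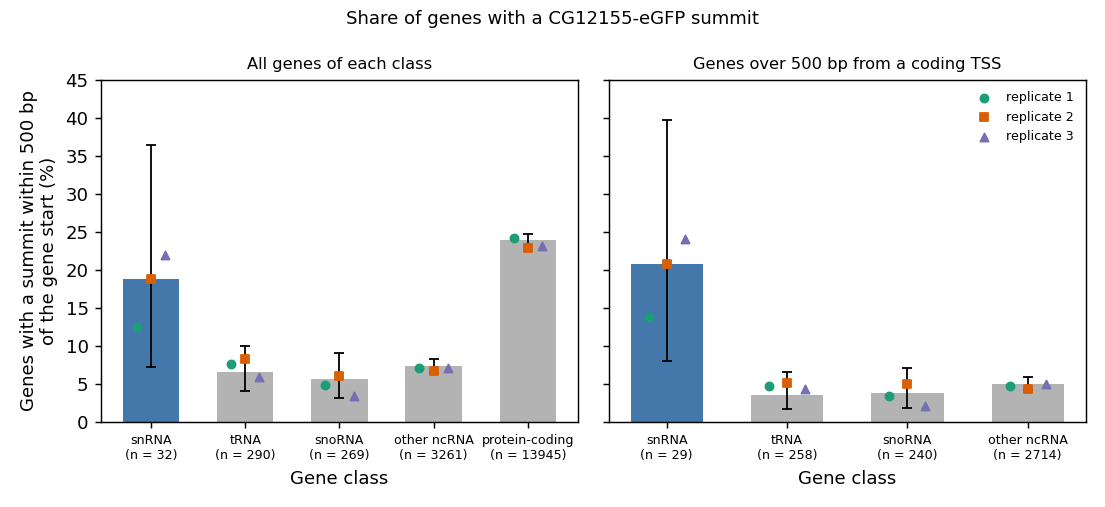
Share of genes with a summit within 500 bp of the gene start, in percent, for each gene class (left) and for genes over 500 bp from a protein-coding transcription start (right). Bars give the optimal list with 95% Clopper-Pearson intervals over genes, and points the 5202 strongest regions of each replicate: snRNA genes stand at 18.8% on the left and 20.7% on the right, where the other classes lie between 3.49 and 4.94%.

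Most snRNA genes, the enriched ones among them, lay away from protein-coding starts. Of the 32 genes, 29 started more than 500 bp from the nearest protein-coding transcription start site (TSS), and all 6 with an optimal summit were among these (20.7%, Clopper-Pearson interval 7.99 to 39.7%). Among genes equally far from a coding TSS the background was 3.49% of 258 tRNA genes, 3.75% of 240 snoRNA genes and 4.94% of 2714 other noncoding genes. Of all arm bases that far from a coding TSS, 1.92% lay within 500 bp of an optimal summit. Among the strongest 50% of optimal peaks, 2 of the 29 snRNA genes had one (6.9%), beside 3.1% of tRNA, 2.08% of snoRNA and 2.25% of other noncoding genes. In replicates 1, 2 and 3, snRNA genes gave 13.8, 20.7 and 24.1%, a mean of 19.5% ± 5.27 (SD, n = 3). The tRNA genes gave 4.65, 5.04 and 4.26% (4.65% ± 0.388), snoRNA genes 3.33, 5 and 2.08% (3.47% ± 1.46) and other noncoding genes 4.64, 4.31 and 5.01% (4.65% ± 0.35). The snRNA values did not overlap those of the other noncoding classes, of which the highest was 5.04%. They rest on 4, 6 and 7 genes, among which U6:96Ab and U6:96Ac share 1 summit in each replicate. The genes within 500 bp of a coding TSS were U2:34ABa, U2:34ABb and U6atac, and 0 of these 3 had an optimal summit. So few genes leave shares of up to 70.8% possible, the upper end of the Clopper-Pearson interval for 0 of 3. The background was 31.2% of tRNA, 20.7% of snoRNA and 19% of other noncoding genes that close to a coding TSS.

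For 1 of the 6 the summit itself lay near a coding start. The summit 475 bp downstream of the start of U5:35D lay 129 bp from the TSS of ND-B17, a gene of the mitochondrial respiratory chain. With only summits over 500 bp from every coding TSS, a count added after the data were seen, 5 of 29 snRNA genes remained (17.2%), beside 3.1% of tRNA, 2.92% of snoRNA and 4.16% of other noncoding genes. The other 4 summits, near 5 genes, lay 3391 to 30434 bp from any coding TSS. Around 3 of these no gene start other than one snRNA gene lay within 500 bp, and around the last only those of the U6 pair.

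The U6 cluster held the strongest of these regions. U6 genes 96Aa, 96Ab and 96Ac lie in a row on the plus strand of 3R, with identical transcribed sequences (100% identity in all 3 pairs). The optimal region at 3R:24556879-24557308 ranked 2310 of 5202, with a signal of 215.5. Its summit lay 121 bp upstream of the start of 96Ac and 402 bp downstream of that of 96Ab, in the spacer between them. The region overlapped 96Ac only. In replicates 1, 2 and 3 it ranked 2480, 2950 and 1859, with summits at -150, -105 and -113 bp from the start of 96Ac (negative is upstream). The first copy, 96Aa, in an intron of Esyt2, had no summit within 500 bp in the pool or in replicates 1 and 2, and a weak one at rank 18075 in replicate 3. The nearest coding TSS, that of Esyt2, was 8077 bp from the summit.

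U1 copies differed widely although their transcribed sequences are nearly the same, at 98.2 to 100% identity over 10 pairs. U1:95Ca, on the minus strand of 3R, had an optimal region at 3R:23859403-23859832 with rank 2711 and signal 192.4, its summit 12 bp into the gene. It ranked 3218, 3783 and 2305 in replicates 1, 2 and 3, with summits 15, 132 and 82 bp into the gene, and the nearest coding TSS was 30434 bp from the summit. U1:21D, on 2L, ranked 5263 in the pool, only 61 places past the end of the optimal list, with its summit at the start base. Its ranks were 7759, 9207 and 3405, so only replicate 3 placed it among its strongest. The last member inside the list was U5:63BC, 570 places before its end.

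The other U1 genes were weaker. U1:82Eb ranked 11066 in the pool and 9128, 16004 and 22267 in the replicates. U1:95Cc ranked 17934 in the pool and 21033, 28392 and 27472 in the replicates, inside an intron of CG34355. U1:95Cb, in an intron of the same gene and identical in transcribed sequence to 95Ca and 21D, had no summit within 500 bp in any list. Upstream the copies part: over the 250 bases before the start the U1 pairs were 51.8 to 59.6% identical. The U1 5′ end itself, atacttacctg, is the same in each U1 stretch printed above and holds the letters that pair with the 5′ splice site.

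Identical copies limit what can be assigned to one gene. No 36-base word within U1:21D, U1:95Ca or U1:95Cb was unique in the genome, and the same held for the U6 genes. A word of 36 bases stands in for a read, whose length is not given in the sources used here, nor is the treatment of reads with several matches. In the 500 bp either side of the start, 85.3% of such words were unique at U1:95Ca, 85.7% at U1:21D and 84.5% at U1:95Cb. These near-equal values go with pooled ranks of 2711, 5263 and none. Over the 6 genes with an optimal summit this window was 85.3 to 94.4% unique, and over the 14 without a pooled summit 46.2 to 100%. The part of repeated sequence in single gaps was not tested.

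**Figure D2:**
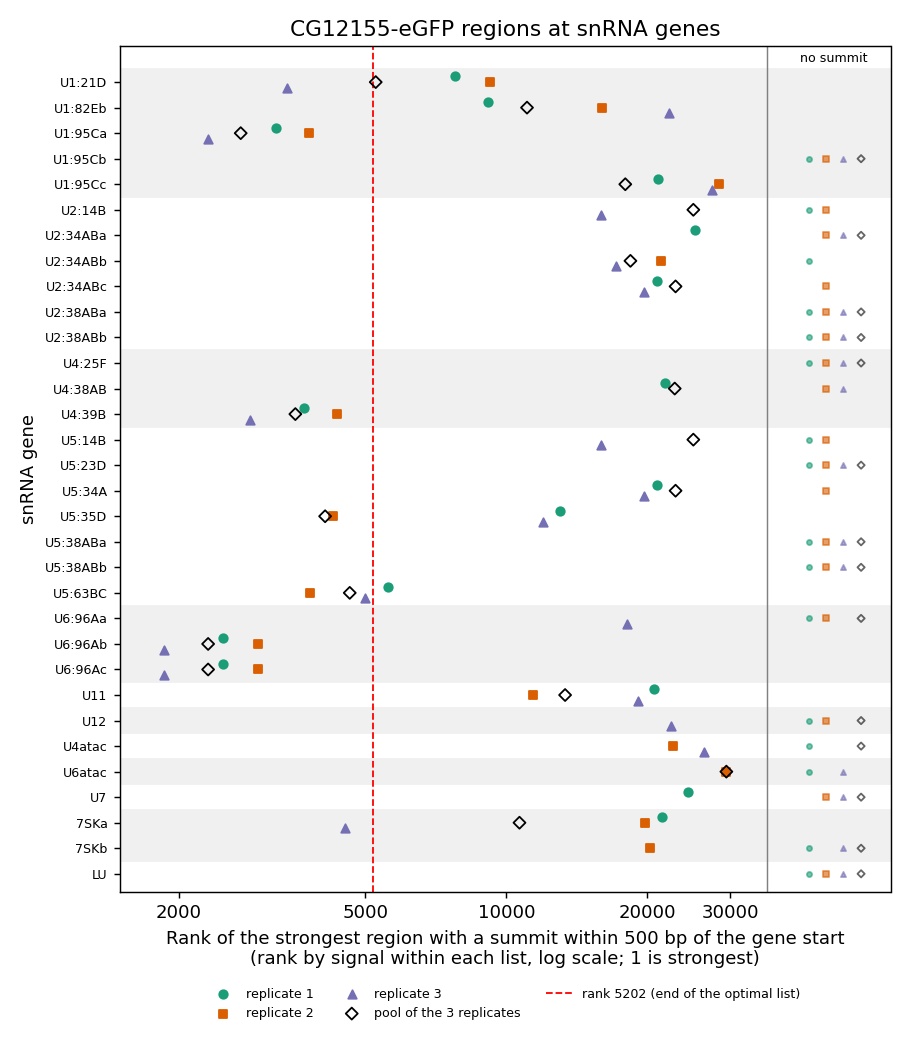
Rank of the strongest region with a summit within 500 bp of each snRNA gene start (log scale, 1 is strongest), in each replicate and in the pool, with genes grouped by class; symbols on the right mark lists with no such summit. Symbols left of the dashed line, at rank 5202, belong to the strongest regions: U6:96Ab, U6:96Ac, U1:95Ca and U4:39B lie there in every list.

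Of the U4 genes, 1 of 3 had an optimal summit. U4:39B lies on the minus strand of 2L in an intron of Atg18b, an autophagy gene. Its region at 2L:21214938-21215367 had rank 3546, signal 159.3 and a summit 25 bp into the gene, 3391 bp from the nearest coding TSS, that of CG8679. Ranks in replicates 1, 2 and 3 were 3695, 4359 and 2839, with summits 25, 20 and 24 bp into the gene. This was the tightest agreement in position among the members with an optimal summit. The related U4:38AB (94.4% identical) reached rank 22865 in the pool, 312 bp upstream of its start, and 21828 in replicate 1 only. U4:25F, the most diverged copy at 73.8% identity to each of the others, had no summit in any list.

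Of the U5 genes, 2 of 7 had an optimal summit. U5:63BC, on the plus strand of 3L, had a region at 3L:3090676-3091105 with rank 4632, signal 128.1 and a summit 90 bp into the gene, 8913 bp from the nearest coding TSS. Its ranks in replicates 1, 2 and 3 were 5577, 3808 and 4982, so replicate 1 placed it just outside its strongest 5202, with a summit 271 bp downstream of the start. Replicates 2 and 3 had it 93 and 88 bp into the gene. The region also overlapped Cht7, a chitinase gene. The region near U5:35D, at 2L:15750992-15751421, had rank 4104 and signal 142.3 and overlapped ND-B17 but not the snRNA gene. Regions overlapping it ranked 3973, 4267 and 4158 in the replicates, but only in replicate 2 did the summit of that region fall within 500 bp of the U5:35D start. U5:14B and U5:34A had weak pooled summits, at ranks 25053 and 22958, each shared with the U2 gene beside it. U5:23D, U5:38ABa and U5:38ABb had none in any list.

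No U2 gene had an optimal summit. With 0 of 6, shares of up to about 50% remain possible, taking 3 counts as an approximate limit of a count of 0. U2 copies were 98.4 to 100% identical over 15 pairs. The best pooled rank was 18393, at U2:34ABb, with 21379 and 17171 in replicates 2 and 3 and no summit in replicate 1. U2:34ABc and U2:14B followed at 22958 and 25053. U2:34ABa had a summit in replicate 1 only, at rank 25222. U2:38ABa and U2:38ABb, in an intron of sick beside U4 and U5 copies, had none. Around U2:34ABc, U2:38ABa and U2:38ABb only 46.2 to 49.7% of 36-base words in the 500 bp either side were unique, the lowest values of all members, and its part in their low ranks was not tested.

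Genes of the minor spliceosome, U7, 7SK and LU had no optimal summit. U11 had a relaxed summit 164 bp into the gene at pooled rank 13343, and ranks of 20622, 11419 and 19129 in the replicates. U6atac was near the end of the pooled list at rank 29468 and absent from replicates 1 and 3. U12 had a summit in replicate 3 alone, at rank 22476, and U4atac had summits in replicates 2 and 3 at ranks 22648 and 26461. U7 appeared in replicate 1 alone, at rank 24442. The replicates differed widely for 7SKa, which ranked 10664 in the pool, 21503 and 19745 in replicates 1 and 2, and 4525 in replicate 3. 7SKb appeared in replicate 2 alone, at rank 20217, and LU in none.

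The relaxed list, which holds peaks together with background, covered more of these genes, most of them at low ranks. A pooled relaxed summit lay within 500 bp of 18 of 32 snRNA genes (56.2%), beside 52% of protein-coding genes (54.2% from any TSS), 55.9% of tRNA genes, 29.4% of snoRNA genes and 29.3% of other noncoding genes. Over 500 bp from a coding TSS the shares were 55.2% for snRNA, 54.3% for tRNA, 24.2% for snoRNA and 24.3% for other noncoding genes, and 15.5% of arm bases. Of the 18, only 7 had a summit among the 10000 strongest pooled regions, and these were the 6 with an optimal summit and U1:21D. At that length the snRNA share was 21.9%, beside 35.4% of protein-coding genes, 21% of tRNA, 8.55% of snoRNA and 12.4% of other noncoding genes. A summit at any rank was present in all 3 replicates for 11 genes, in 2 for 4, in 1 for 9 and in none for 8. The 8 without a summit in any list were LU, U1:95Cb, U2:38ABa, U2:38ABb, U4:25F, U5:23D, U5:38ABa and U5:38ABb. The relaxed lists hold 30000 regions each, or 29643 in replicate 2, and enrichment weaker than these would not appear. By position, 16 members lay in introns of protein-coding genes and 16 outside them, and optimal summits fell to 1 of the former and 5 of the latter. Among those 5, U6:96Ab and U6:96Ac share 1 summit, and that of U5:35D lies 129 bp from a coding TSS. This split was not made for other gene classes.

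Summits lay both upstream of the snRNA genes and within them. Of the 6 genes with an optimal summit, 1 had it upstream of the start, 3 had it 12 to 90 bp into the gene and 2 had it beyond the gene's end. The U6 summit counts here both as upstream of 96Ac and as beyond the end of 96Ab. Over the 18 genes with a pooled summit, the nearest had a median position of 6 bp, with 8 upstream, 9 at the start or inside the gene, and 1 beyond its end. For 3339 protein-coding genes with an optimal summit near the gene start, the median was -108 bp (upstream) and 84.1% were upstream. In the pooled relaxed list 73.7% of protein-coding genes and 44.4% of snRNA genes had the nearest summit upstream. For the 19 tRNA genes the median was -17 bp with 52.6% upstream. Regions are 430 bp wide at the median and DNA fragments were 200 to 800 bp long, so these positions do not separate the upstream element, about 58 bases before the start, from the gene itself.

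**Figure D3:**
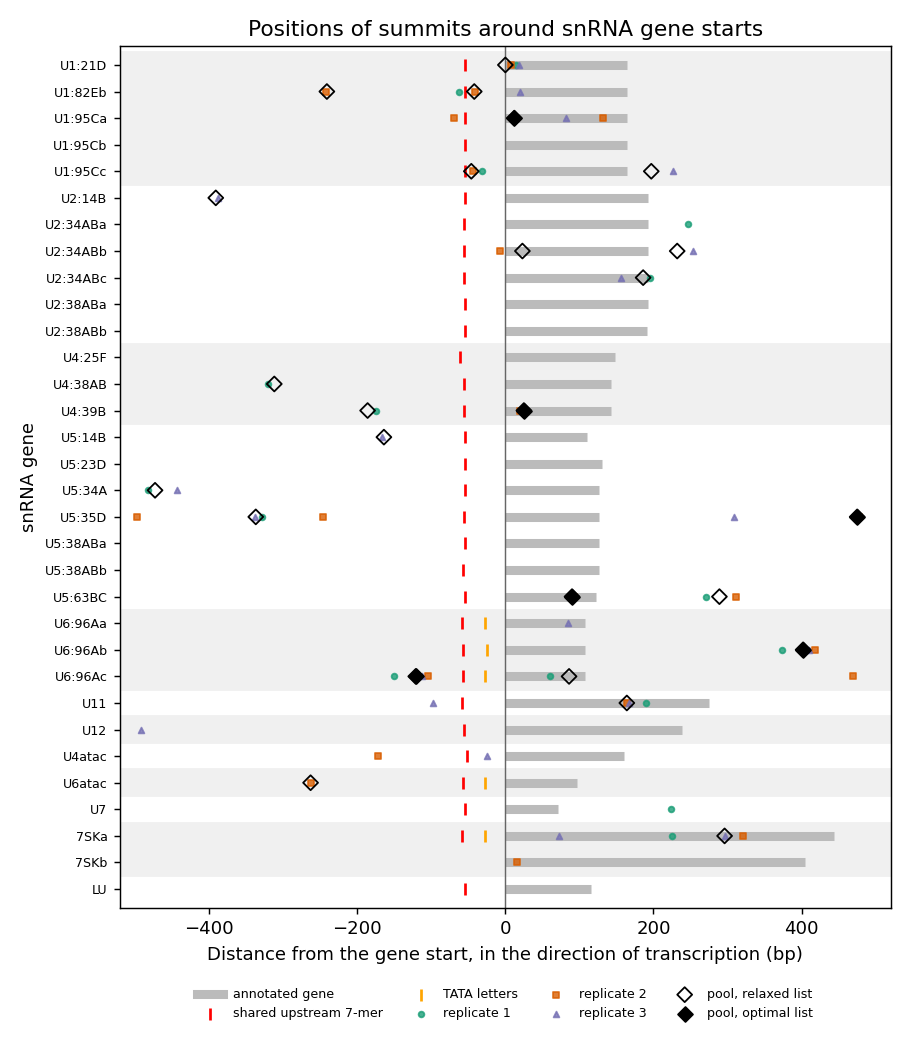
Positions of all summits within 500 bp of each snRNA gene start, in bp along the direction of transcription, with the gene as a grey bar, the shared upstream 7-mer in red and the TATA letters in orange. Filled diamonds are optimal summits: those of U1:95Ca, U4:39B and U5:63BC lie 12, 25 and 90 bp into the gene, and the U6 summit lies 121 bp upstream of U6:96Ac.

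The shared letters could not tell enriched copies from the others, since they were picked for standing in most member promoters. TTCNCAA stood in the promoters of all 6 genes with an optimal summit and of 25 of the 26 without. Within 100 bp of the summit, on either strand, it was found at 3 of the 5 distinct member summits (U6, U1:95Ca and U4:39B), beside 12.7% of the 5202 optimal summits and 12.8% of the 24798 weaker pooled summits. The motif TATCGATA, known as the DRE, bound by DREF at many housekeeping promoters, was at 0 of 5 and at 5.25% of optimal summits. GAGAGA, letters bound by GAGA factor, was at 0 of 5 and at 10.8%. TATATA was at 1 of 5, the U6 summit, and at 18.3%. For TTCNCAA the member count also follows from how near each summit lies to the gene start. With 5 summits these counts allow no comparison, and absent letters say nothing of a factor. The GC content of these windows was 51.7% at U1:95Ca, 48.3% at U4:39B and 32.8 to 38.3% at the other 3, with a median of 35.3% over all optimal summits.

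Among other short RNA genes, RNaseMRP:RNA, the RNA of an RNA-cleaving enzyme, had a pooled summit at rank 9021, with ranks of 9610, 11423 and 22843 in the replicates. RNaseP:RNA, both 7SL genes (the RNA of the signal recognition particle) and the selenocysteine tRNA gene had none within 500 bp in any list. The strongest tRNA gene regions ranked higher than any snRNA gene: 112 at tRNA:Tyr-GTA-1-8, which starts 444 bp from a coding TSS, 321 at a cluster of 3 tRNA:Leu-CAG genes and 473 at a second cluster of these. The strongest snoRNA gene region, rank 159, had its summit at -369 bp from the start of snoRNA:Psi18S-1275, which lies 301 bp from a coding TSS. It was followed by snoRNA:Psi28S-2949 at rank 553, snoRNA:Or-CD11a, which starts 39 bp from a coding TSS, at 873 and snoRNA:Or-ACA6 at 1275.

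The genes whose proteins make and use snRNAs were read at all their TSSs, where the background is 26.2% of protein-coding genes with an optimal summit within 500 bp. Over 70 genes in 7 lists, 29 had one (41.4%; 44.3% ± 1.43 in the replicates, SD, n = 3). For all protein-coding genes the replicates gave 26.5, 25.1 and 25.4%. Pathway genes were listed by known function with earlier results of these data known, so the counts are descriptions. Factors at snRNA promoters gave 7 of 10. Pbp95 and Pbp45 encode parts of the complex on the upstream element and ranked 2343 and 4545, the former with its summit at -495 bp from the TSS and with the start of CG10435 within 500 bp of it. Their partner Pbp49 had no optimal summit, nor did Tbp or Trf. Brf and Bdp1, which encode parts of the initiation factor TFIIIB of RNA polymerase III, ranked 230 and 162. TfIIA-S, TfIIA-L and TfIIB, of general initiation factors, ranked 861, 866 and 1461.

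The Integrator complex, which cuts the 3′ end of snRNAs, gave 6 of 14, led by IntS6 (rank 499), IntS11 (591), its endonuclease, IntS9 (991) and IntS10 (1252). Proteins of the snRNPs, the particles that hold snRNAs, gave 6 of 12, led by snRNP-U1-C (675), SNRPG (996), U4-U6-60K (1214) and Prp31 (1612). snRNP assembly and export gave 3 of 15, at Cbp20 (998), which binds the RNA cap, icln (1167) and Smn (2083), both of the assembly pathway. This list was below the background in the optimal list (20%) and at 33.3% ± 11.5 in the replicates. RNA polymerase III subunits gave 3 of 10, among them Polr3E (1089) and Polr3F (4944). The proteins of 7SK and P-TEFb gave 4 of 5, at bin3 (602), Larp7 (1838), CycT (3866) and Hexim (5153), near the end of the list. The replicates gave 53.3% ± 11.5 for this list, beside 80% in the optimal list, and Hexim, which ranked 5583, 7793 and 8280, was among the strongest regions of none. The little elongation complex, which acts at snRNA genes, gave 0 of 4, with 25% ± 25 in the replicates. The summits of IntS6, IntS9, IntS10, IntS11, Brf, Bdp1, TfIIA-L, TfIIB, snRNP-U1-C, SNRPG, U4-U6-60K, Prp31, Cbp20, icln, Polr3E, Polr3F and Larp7 lay within 500 bp of a further coding start too.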

How the data were processed

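Per the labels, chromatin from 3 biological replicates was sonicated to 200 to 800 bp and precipitated with an antibody against GFP. Per the deposited notes, the authors made on dm6 1 relaxed list per replicate and 1 for the pool, of peaks plus background, and an optimal list that passes the irreproducible discovery rate. Each deposited list gives a signal per region, used only for ranks, a −log10 q-value, not used, and a summit offset. The sources used here do not name the aligner, caller, settings or threshold. All deposited regions lie on the chromosome arms and were used. The 5202 optimal regions equal the 5202 strongest pooled ones. The lists hold no read counts, so depth is unknown. dm3 lists were not used here.

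Genes came from Ensembl release 115 and sequence from RefSeq Release 6. Summits were matched to gene starts within 500 bp, with Python 3.11.15, pandas 2.3.3 and scipy 1.17.1, and copies aligned with Biopython 1.88. The procedures were tested on simulated summits. Members are defined by symbol alone, but they, the gene lists and the alternatives were chosen with earlier results of these data known. Of 80 listed symbols, 4 had no single match. Genes named were every member with an optimal summit, single-copy classes, members with a pooled summit among the 10000 strongest, and the 4 strongest of each list, of which 1 is not reported here. Other members and copies were named after their values were seen, to account for each. No test was run: with 1 group, shares are given beside the background.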

Additional observations from a re-analysis of the deposited data

How the results depend on the processing

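Windows of 200 and 1000 bp gave 4 and 7 of 32 snRNA genes with an optimal summit (12.5 and 21.9%). Over any TSS, 19.6 and 29.2% of protein-coding genes had one at these windows. Among peaks supported by both other replicates, leaving out a replicate gave 5 to 6, and 5 to 6 of the 29 genes far from coding starts. The strongest 50% of optimal peaks kept 2 of 32 and 2 of the 29, both at the U6 pair, while 15.4% of protein-coding genes remained, of 26.2% over any TSS. Relaxed pooled summits fell from 18 snRNA genes (56.2%) to 11 with 200 bp (34.4%) and to 7 in the strongest 10000 regions (21.9%). The protein-coding share over any TSS fell too, from 54.2% to 41.9 and 37.8% in the same order. The replicate mean of 17.7% moved to 12.5% with 200 bp, 22.9% with 1000 bp and 5.21% in the strongest 2600 regions, and ranged from 15.6 to 20.3% with a replicate left out. Other gene classes were not counted in the replicates at these windows and lengths. Whether the snRNA share stays above that of other noncoding genes there was therefore not tested. For the pathway genes these alternatives gave 21 to 33 of 70, from 30% with 200 bp to 47.1% with 1000 bp. With a replicate left out these genes gave 23 to 26 (32.9 to 37.1%), beside 21.2 to 21.8% of protein-coding genes over any TSS. The cause of each shift other than the narrower window or shorter list was not tested. No paired analysis was possible because the design has 1 group. Unknown depth and the length of the relaxed lists limit what absence of a summit shows.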
